A study of Mus musculus with 26 samples.

Results

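Messenger RNA was measured in 35 genes of pyruvate oxidation and the tricarboxylic acid (TCA) cycle in mouse left ventricle. The genes were chosen by name, all 35 were found as 1 row each among 56941 genes in the count matrix, and all 35 were abundant enough to be tested. The tissue came from 26 mice of a mixed background (floxed line C57BL6/N, Cre line FVB) that were 12 to 16 weeks old and had received saline from an implanted minipump for 2 weeks. Every mouse carried floxed alleles of Ppp2r2a, which encodes B55α, a regulatory subunit of protein phosphatase 2A. The knockout mice (cKO, genotype aMHC-CreTg/0-Ppp2r2aL/L) also carried Cre under the aMHC promoter, which is active in cardiomyocytes, and the control mice (Ctrl, aMHC-Cre0/0-Ppp2r2aL/L) carried no Cre. A Cre-only control group was not analysed here, so effects of Cre and of the deletion cannot be told apart. The Ctrl groups held 6 mice of each sex and the cKO groups 7 of each sex. The title of the series asks how B55α regulates the cardiac transcriptome in each sex, which the design addresses by the genotype effect in males, in females and the difference between these effects.

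Heart muscle draws most of its ATP from mitochondrial oxidation. Pyruvate enters the mitochondrion through a carrier and is converted to acetyl-CoA by the pyruvate dehydrogenase complex, whose activity is lowered when its kinases phosphorylate the complex and restored when its phosphatases remove that phosphate. The TCA cycle then oxidises acetyl-CoA from pyruvate and from fatty acids, and passes electrons to the respiratory chain as NADH and, at succinate dehydrogenase, directly to ubiquinone.

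Libraries held 14403102 to 30867399 counts, and mitochondrially encoded genes took 13.8% to 19.2% of them. Levels are given as CPM, the usual unit of a gene's counts relative to its library's total, with totals scaled by edgeR's TMM method. The targeted gene was lower in every cKO mouse than in every Ctrl mouse of its sex, with log2 fold changes of -1.40 (SE 0.14) in males and -1.58 (SE 0.14) in females. All fold changes and effects below are on the log2 scale. Ctrl males 3 and 6 had 24.9 and 24.1 CPM of Ppp2r2a against a Ctrl male median of 42.2, so the member counts were also computed without them. All 10 cardiomyocyte markers were abundant, in sum 73958 to 98740 CPM per mouse, and the 4 adipocyte and 4 lymphocyte markers were each in sum below 6 CPM in every mouse.

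The 35 genes together took 2.04% to 2.33% of all counts in a mouse. Levels of different genes were compared per kb of the longest annotated transcript, a scale that depends on which transcript the ventricle uses. On this scale the mitochondrial NADP-dependent isocitrate dehydrogenase Idh2 was highest, at a mean of 1251 CPM per kb over the 26 mice. The malate dehydrogenases Mdh1 (cytosolic, 922 CPM per kb) and Mdh2 (mitochondrial, 793 CPM per kb) came next. The 4 subunit genes of succinate dehydrogenase were spread over 664 CPM per kb for Sdhb, 375 for Sdha, 350 for Sdhd and 141 for Sdhc. In the pyruvate dehydrogenase complex, the catalytic subunit genes Pdha1 and Pdhb were at 380 and 268 CPM per kb. The complex's dihydrolipoamide dehydrogenase Dld, acetyltransferase Dlat and binding protein Pdhx were at 162, 92.4 and 62.2 CPM per kb.

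The kinases and phosphatases of the complex spanned a wide range of levels. Among the pyruvate dehydrogenase kinases the level per kb was 217 CPM for Pdk2, 42.1 CPM for Pdk1 and 0.842 CPM for Pdk3. The phosphatase genes Pdp1 and Pdp2 were at 7.55 and 5.32 CPM per kb and the phosphatase regulator Pdpr at 10.99 CPM per kb. Pdk3 was the least abundant of the 35, with 24 to 73 counts per library, and its mice within a group varied by a coefficient of variation of 21.6%. The other 34 genes had within-group coefficients between 3.99% (Idh3b) and 14.2% (Pdpr).

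**Figure D1:**
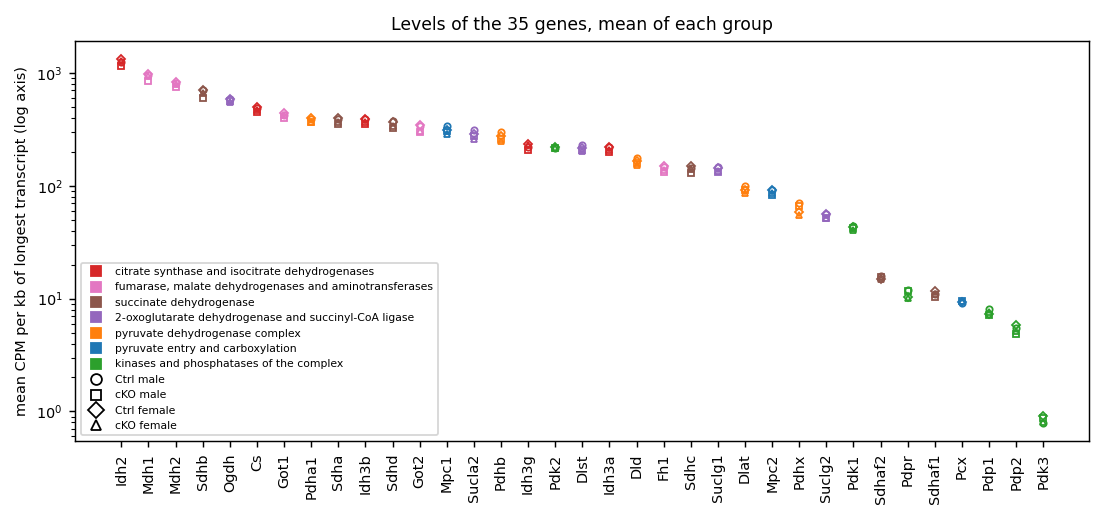
Mean level of each of the 35 genes in each of the 4 groups, as CPM per kb of the longest transcript on a log axis; color marks the role and the symbol marks the group. Idh2 stood highest at 1251 CPM per kb over all mice and Pdk3 lowest at 0.842 CPM per kb, and the 4 groups lay close together for each gene compared with the range between genes.

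In cKO males 2 of the 35 genes fell, Sdhb and Sdhd, and no gene rose (edgeR adjusted p under 0.05 over all 15357 genes tested). Of all genes tested, 0.443% were called in this comparison and 0.26% were called lower. The estimated changes were small and mostly of 1 sign: 33 of the 35 fold changes were below 0, where 49.7% of all genes were, and the median fold change was -0.13 against 0.00 for all genes (log2 scale). At an unadjusted p under 0.05 there were 21 lower genes and 0 higher genes among the 35, against 7.09% and 6.11% of all genes. These shares are not like for like, since the median SE in males was 0.052 for the 35 genes and 0.104 for all genes. The 35 genes also varied together across mice, with a median pair correlation of 0.434 and 518 of 595 pairs above 0. Counts among the 35 genes, here and below, are therefore not counts of separate observations. In 4 genes (Sdhb, Sdhd, Sucla2 and Mdh1) the highest cKO male lay below the lowest Ctrl male, a separation seen in that direction in 0.873% of all genes.

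**Figure D2:**
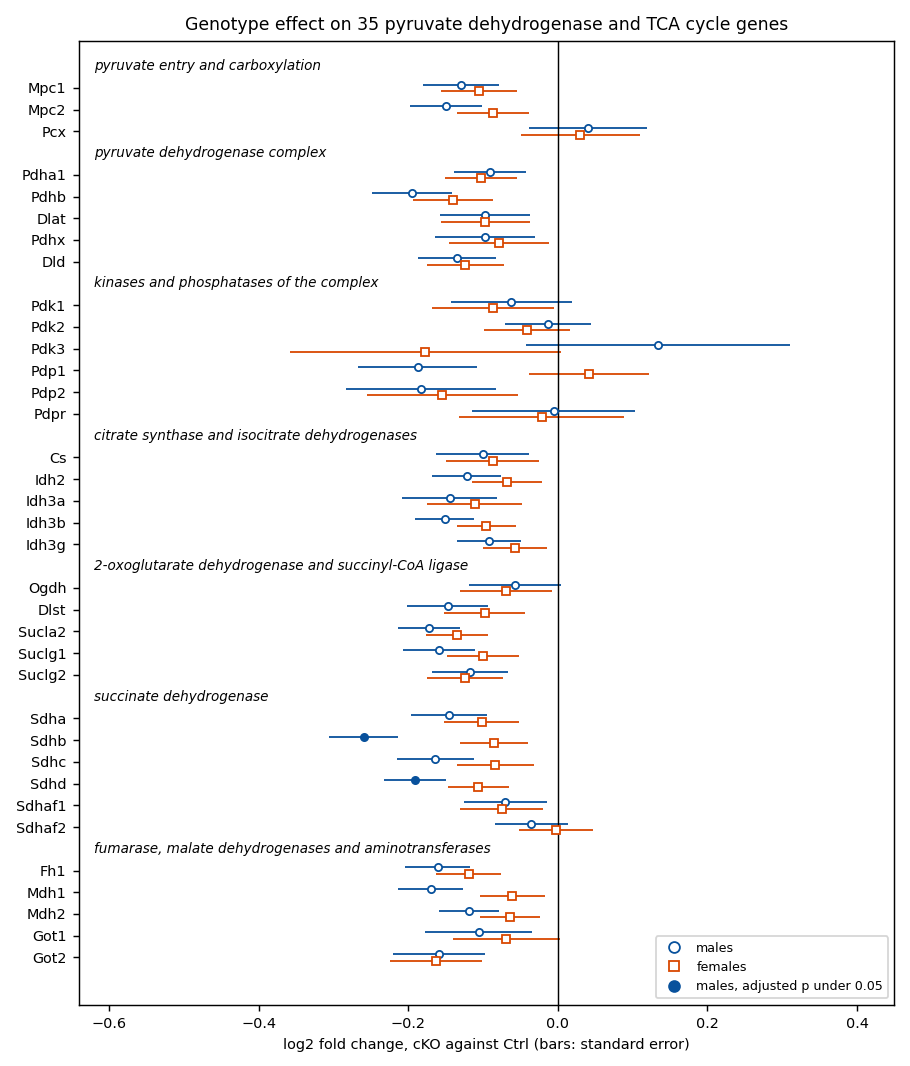
Log2 fold change of cKO against Ctrl for each gene, grouped by role, with males as circles, females as squares and bars for the standard error. In males 33 of 35 points lie left of 0 and filled symbols mark the 2 genes past the threshold (Sdhb and Sdhd); in females 33 of 35 points lie left of 0 and none is filled.

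In females 0 of the 35 genes were called by edgeR, and 0.0326% of all genes were. At an unadjusted p under 0.05 there were 11 lower genes among the 35, against 2.42% of all genes, and 0 higher genes. A DESeq2 Wald test and limma voom also called 0 of them. The fold changes of 33 genes were below 0 (48.9% of all genes were), with a median of -0.09. In 0 of the 35 genes were all cKO females below all Ctrl females, a separation seen in 0.0521% of all genes. The smallest edgeR adjusted p was 0.766, for Sucla2.

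The sexes share no mice, and their values stand side by side as follows. The fold change was below 0 in both sexes for 32 genes and above 0 in both for Pcx. It had opposite signs for Pdk3 and Pdp1. Among the 32, the male estimate was the larger in size for 24. The difference between the sexes' genotype effects passed the threshold for 0 of the 35 genes (edgeR; 0% of all genes passed). At an unadjusted p under 0.05 it was found for 1 gene, Sdhb, where 3.96% of all genes were, and DESeq2 and voom called 0. These data show no sex difference in the genotype effect on these genes at the threshold used.

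Averaged over both sexes, 6 of the 35 genes fell in cKO mice and none rose (edgeR adjusted p under 0.05; 1.33% of all genes were called and 0.866% were called lower). They were Sdhb, Sdhd, Sucla2, Fh1, Idh3b and Pdhb, which encode subunits of 4 TCA cycle enzymes and of the pyruvate dehydrogenase complex. This mean effect uses the same mice as the comparison in each sex and is no separate evidence. The estimates of 34 genes were below 0 (48.4% of all genes were), their median was -0.12 against 0.00 over all genes, and 24 genes had an unadjusted p under 0.05, all lower (7.7% of all genes were lower at that p).

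Markers of cell types were measured in the same libraries. Summed over 10 cardiomyocyte markers, the ventricle held 8.49% to 8.97% of counts in Ctrl males and 7.66% to 8.69% in cKO males. In females the sum was 8.52% to 9.60% in Ctrl and 8.39% to 9.34% in cKO. The median fold change of these markers was -0.11 in males and -0.08 in females. In males 2 of the 10 fell, Tnni3 and Myl3, genes of the cardiac contractile apparatus (edgeR adjusted p = 0.0316 and 0.0374), where 0.26% of all genes were called lower. At an unadjusted p under 0.05, 4 of the 10 were lower and 0 higher in males. In females 1 was lower and 0 higher, where 2.42% of all genes were lower. In the mean effect 5 were lower at that p (7.7% of all genes), and Tnni3 and Myl3 were called lower (0.866%). Of 8 fibroblast markers none was called in males, 3 had an unadjusted p under 0.05, all higher, and their median fold change was 0.27. In females 0 of 8 reached that p, with a median of 0.10. No endothelial, smooth muscle and pericyte or macrophage marker (7 each) was called for genotype in either sex. At an unadjusted p under 0.05, 1 endothelial and 1 macrophage marker were higher in males and 0 were lower, and in females 0 reached that p. Of all genes, 6.11% were higher and 7.09% lower in males at that p. The median fold changes of the endothelial, smooth muscle and pericyte, and macrophage markers in males were -0.10, -0.18 and 0.03, and in females 0.05, 0.04 and 0.08. Of 4 atrial markers, Myl7 and Sln had at most 3 counts in a library and Myl4 at most 2.31 CPM. Nppa, the atrial natriuretic peptide gene that ventricles also express under load, was at 86.1 to 422.4 CPM in Ctrl males and 123.9 to 736.1 CPM in cKO males, with a log2 fold change of 1.15 (edgeR adjusted p = 0.171). The sum of the fibroblast markers was 0.0859% to 0.136% of counts in Ctrl males and 0.106% to 0.153% in cKO males.

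Set against the cardiomyocyte markers, the 35 genes in sum differed between genotypes by less than the SD within a group. They held 25.9 ± 0.489 counts per 100 cardiomyocyte marker counts in Ctrl males (SD, n = 6) and 25.7 ± 0.844 in cKO males (SD, n = 7). In females the ratio was 24.96 ± 0.638 in Ctrl (SD, n = 6) and 24.8 ± 0.730 in cKO (SD, n = 7). For Sdhb alone, per 1000 marker counts, it was 9.97 ± 0.586 in Ctrl males (SD, n = 6) and 9.02 ± 0.478 in cKO males (SD, n = 7), with overlapping ranges of 9.08 to 10.6 and 8.39 to 9.88. The Sdhb ratio in females was 9.40 ± 0.474 in Ctrl (SD, n = 6) and 9.35 ± 0.693 in cKO (SD, n = 7). In bulk ventricle a smaller share of cardiomyocyte RNA and less of these messengers per cardiomyocyte cannot be told apart, and the part of cell composition in the fold changes was not tested.

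**Figure D3:**
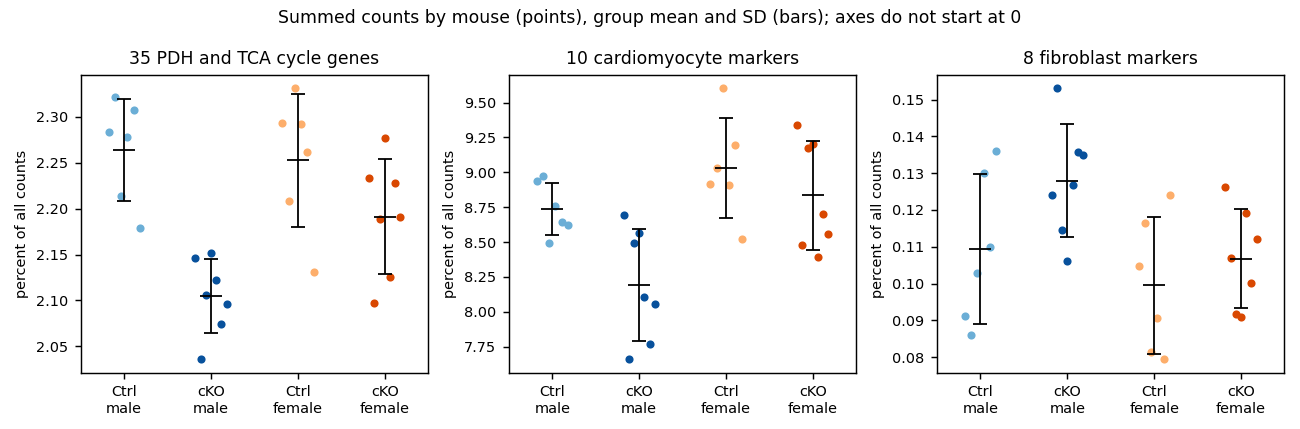
Percent of each mouse's counts taken by the 35 genes (left), 10 cardiomyocyte markers (middle) and 8 fibroblast markers (right), with points for mice and bars for the group mean and SD. The 35 genes took 2.18% to 2.32% in Ctrl males and 2.04% to 2.15% in cKO males with no overlap, while the groups overlapped for both marker sums and for the 35 genes in females.

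Pyruvate entry was covered by Mpc1 and Mpc2, which together form the mitochondrial pyruvate carrier, and by Pcx, the pyruvate carboxylase that refills oxaloacetate. None of the 3 was called for genotype. Mpc2 had the smallest p of the 3 in the mean effect, with a fold change of -0.12 (SE 0.03, edgeR adjusted p = 0.0725). It ranged from 339.3 to 386.3 CPM in Ctrl males (median 371.2) and from 316.1 to 349.1 CPM in cKO males (median 330.8), with overlap. In females the ranges were 333.7 to 411.3 CPM (median 358.9) in Ctrl and 321.3 to 362.7 CPM (median 349.8) in cKO. Mpc1 had fold changes of -0.13 in males and -0.11 in females. Pcx was the 1 gene of the 35 with an estimate above 0 in both sexes, 0.04 in males and 0.03 in females, each smaller than its SE of 0.08.

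In the pyruvate dehydrogenase complex all 5 genes had negative estimates in both sexes, and 1, Pdhb, fell in the mean effect. Pdhb encodes the beta subunit of the decarboxylating enzyme. Its level was 633.5 to 799.0 CPM in Ctrl males (median 700.7) and 542.9 to 656.6 CPM in cKO males (median 623.3). Among females it was at 596.2 to 696.1 CPM (median 649.4) in Ctrl and 540.2 to 647.2 CPM (median 588.1) in cKO. The genotypes overlapped in both sexes, and all 7 cKO mice of each sex lay below the Ctrl mean of their sex. The mean effect was -0.17 (SE 0.04, edgeR adjusted p = 0.0239), with -0.19 in males and -0.14 in females. Pdha1, which pairs with Pdhb and carries the phosphorylated sites, had a mean effect of -0.10 and was not called.

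The kinases and phosphatases of the complex showed no called change in any of the 6 comparisons. Pdp2 had the smallest p in the mean effect, with a fold change of -0.17 (SE 0.07, edgeR adjusted p = 0.254). It was at 26.5 to 36.3 CPM in Ctrl males (median 32.0) and 22.0 to 31.9 CPM in cKO males (median 27.2). Among females it was at 26.7 to 41.1 CPM (median 32.3) in Ctrl and 22.9 to 36.5 CPM (median 28.8) in cKO, and the genotypes overlapped in both sexes. Pdp1 had fold changes of -0.19 in males and 0.04 in females, and its difference between the sexes was 0.23 (SE 0.11, edgeR unadjusted p = 0.0531). Pdk2, the abundant kinase, had fold changes of -0.01 in males and -0.04 in females. For the low Pdk3 the standard error was 0.18 in each sex, so a change of the size seen in other genes could not be detected with that error.

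All 5 genes of citrate formation and isocitrate oxidation had negative estimates in both sexes, between -0.15 and -0.09 in males and between -0.11 and -0.06 in females. Idh3b, a regulatory subunit of the NAD-dependent isocitrate dehydrogenase, fell in the mean effect. It was at 752.7 to 855.1 CPM in Ctrl males (median 807.3) and 676.9 to 753.9 CPM in cKO males (median 727.1). The male genotypes met at their edges, with 6 of 7 cKO males below every Ctrl male. In females it was at 746.3 to 846.9 CPM (median 794.9) in Ctrl and 695.0 to 783.9 CPM (median 754.5) in cKO. The mean effect was -0.12 (SE 0.03, edgeR adjusted p = 0.0239). Citrate synthase, Cs, which starts the cycle, had a mean effect of -0.09 and was not called, and neither was the catalytic subunit gene Idh3a at -0.13.

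Among the genes for the step from 2-oxoglutarate to succinate, Sucla2 fell in the mean effect. It encodes the beta subunit of the ATP-forming succinyl-CoA ligase, and Suclg2 encodes that of the GTP-forming enzyme. Sucla2 was at 661.2 to 747.6 CPM in Ctrl males (median 686.0) and 583.4 to 645.1 CPM in cKO males (median 608.1), without overlap. Levels in females were 566.8 to 670.8 CPM (median 644.1) in Ctrl and 559.9 to 600.8 CPM (median 576.5) in cKO. The lowest Ctrl female, number 6, reached into the cKO range, and the other 5 Ctrl females were above all cKO females. The mean effect was -0.15 (SE 0.03, edgeR adjusted p = 0.00965), with -0.17 in males (edgeR adjusted p = 0.0506) and -0.13 in females (edgeR adjusted p = 0.766). Suclg2, Suclg1 (the shared alpha subunit), Dlst and Ogdh had mean effects of -0.12, -0.13, -0.12 and -0.06, and none was called.

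Succinate dehydrogenase held both genes that were called in males. Sdhb encodes its iron-sulfur subunit. It was at 843.1 to 938.0 CPM in Ctrl males (median 872.1) and 671.4 to 796.8 CPM in cKO males (median 726.6), so all 7 cKO males lay below all Ctrl males. In females it was at 829.8 to 916.6 CPM (median 858.1) in Ctrl and 740.1 to 881.1 CPM (median 822.7) in cKO, and the genotypes overlapped. The male fold change was -0.26 (SE 0.05, edgeR adjusted p = 0.0132), the female one -0.09 (SE 0.05, edgeR adjusted p = 0.948) and the mean effect -0.17 (SE 0.03, edgeR adjusted p = 0.00965). The difference between the sexes was 0.17 (SE 0.06, edgeR unadjusted p = 0.0119, adjusted p = 0.999).

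Sdhd encodes a membrane anchor of the enzyme. It was at 429.5 to 492.0 CPM in Ctrl males (median 457.1) and 377.5 to 426.0 CPM in cKO males (median 402.1), without overlap. In females it was at 422.1 to 471.8 CPM (median 450.1) in Ctrl and 392.7 to 437.6 CPM (median 420.8) in cKO, with overlap. The fold change was -0.19 in males (SE 0.04, edgeR adjusted p = 0.0316), -0.11 in females (SE 0.04, edgeR adjusted p = 0.922) and -0.15 in the mean effect (SE 0.03, edgeR adjusted p = 0.0103). The flavoprotein gene Sdha and the other anchor Sdhc had male fold changes of -0.15 and -0.16 and were not called. The assembly factors Sdhaf1 and Sdhaf2, which help to mature the iron-sulfur and the flavoprotein subunit, had -0.07 and -0.04 in males.

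Fumarase, the malate dehydrogenases and the aspartate aminotransferases complete the list. Together these enzymes regenerate oxaloacetate and move reducing equivalents across the mitochondrial membrane in the malate-aspartate shuttle. Fh1, which encodes fumarase, fell in the mean effect by 0.14 on the log2 scale (SE 0.03, edgeR adjusted p = 0.0193). It was at 366.7 to 426.4 CPM in Ctrl males (median 385.6) and 332.1 to 370.7 CPM in cKO males (median 352.5), with 1 cKO male inside the Ctrl range. Female levels were 376.0 to 408.4 CPM (median 399.9) in Ctrl and 330.5 to 383.6 CPM (median 368.3) in cKO. Mdh1 was at 1955 to 2124 CPM in Ctrl males (median 2022) and 1703 to 1862 CPM in cKO males (median 1814), without overlap. Its male fold change of -0.17 did not pass (edgeR adjusted p = 0.0639), and in females it was -0.06. Got2, the mitochondrial aminotransferase, had -0.16 in each sex and a mean effect of -0.16 (SE 0.04, edgeR adjusted p = 0.0583).

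**Figure D4:**
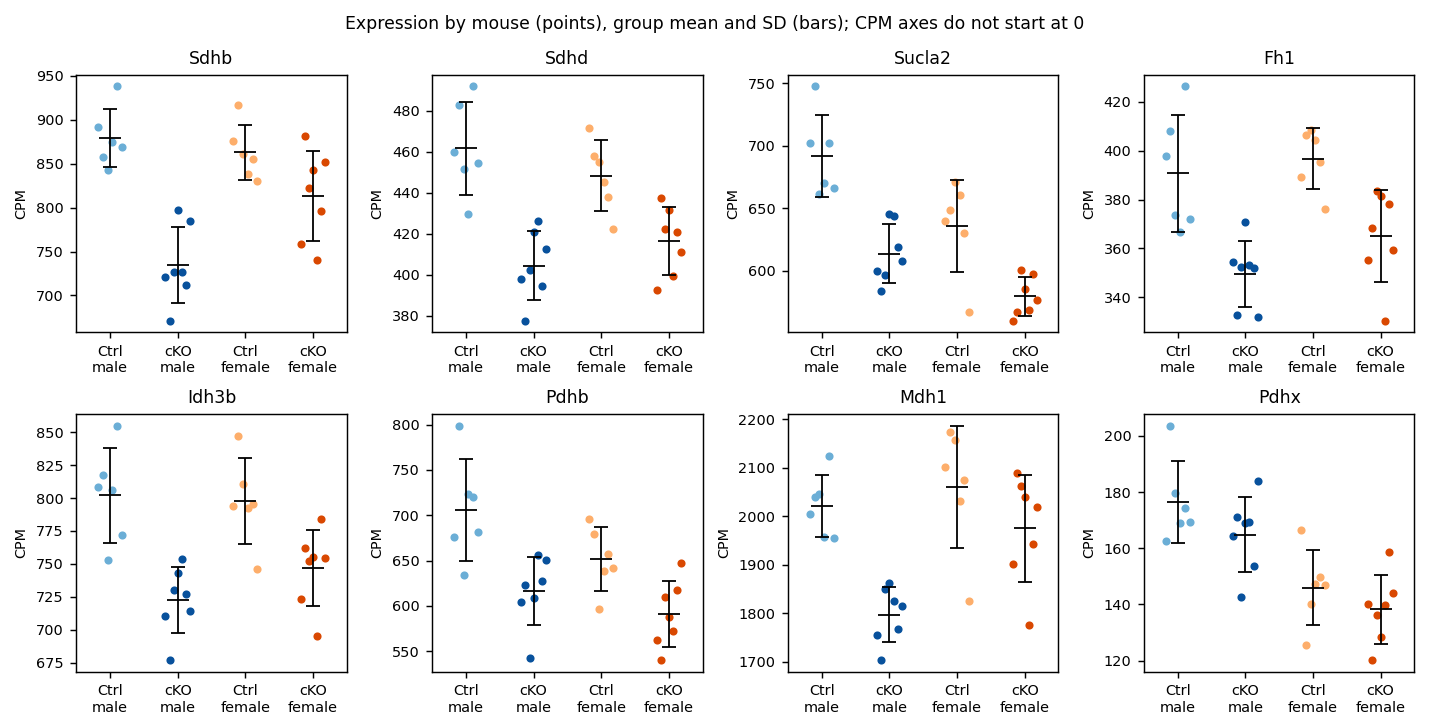
CPM by mouse (points) with group mean and SD (bars) for the 6 genes called in the mean genotype effect, for Mdh1 and for Pdhx; axes do not start at 0. In males the genotypes do not overlap for Sdhb, Sdhd, Sucla2 and Mdh1, in females they overlap in all 8 panels, and Pdhx is lower in females of both genotypes.

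Fitting a length and GC trend per library left 1 of 2 calls in males, Sdhb (fold change -0.23), and 3 of 6 in the mean effect, Sdhb, Sdhd and Sucla2. The fold changes of the genes no longer called kept their sign, at -0.15 for Sdhd in males and -0.13, -0.10 and -0.15 for Fh1, Idh3b and Pdhb in the mean effect. With this trend fitted, 15 of all genes were called in males (68 without it) and 163 in the mean effect (205 without it). Without Ctrl male 5, 0 of the 35 genes were called in males, where Sdhb then had an edgeR adjusted p of 0.0804, and 1 was called without Ctrl male 1 or 2 or cKO male 1, 2, 5 or 6. Without Ctrl males 3 and 6 together the count was 1 in males and 10 in the mean effect.

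Sequence upstream of the start is shown for the 6 genes that fell in the mean effect, since these are the members called. RefSeq promoter windows (GRCm38.p6) were matched by symbol for 32 of the 35 genes, with 41 listed starts, and not for Idh3a, Sdhc and Pdp1. The build is the table's own and is older than that of the counts. The 250 bases before each start were searched on both strands for AAGGTCA (bound by estrogen-related receptors), GCGCA and GCGC with 1 base of any kind between them (NRF1), CCGGAAG (GABPA) and CCAAT (NFY), and no match of 1 motif overlapped another in the 6 genes. The 120 bases next to the start are printed 5′ to 3′ on the gene's strand, in lower case with matches in capitals, and hold every match of these 6 windows.
Sdhb, chr4:140961151-140961270, plus strand: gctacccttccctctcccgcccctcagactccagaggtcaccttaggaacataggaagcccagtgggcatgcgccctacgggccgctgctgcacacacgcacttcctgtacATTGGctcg
Sdhd, chr9:50603850-50603969, minus strand: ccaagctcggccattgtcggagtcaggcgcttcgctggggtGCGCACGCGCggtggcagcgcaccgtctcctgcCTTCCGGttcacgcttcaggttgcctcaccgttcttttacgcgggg
Sucla2, chr14:73552666-73552785, plus strand: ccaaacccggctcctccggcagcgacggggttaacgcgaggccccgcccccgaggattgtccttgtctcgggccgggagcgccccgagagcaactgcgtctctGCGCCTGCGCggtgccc
Fh1, chr1:175625636-175625755, minus strand: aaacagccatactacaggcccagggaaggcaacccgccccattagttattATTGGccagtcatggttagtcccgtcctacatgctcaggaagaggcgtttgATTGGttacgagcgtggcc
Idh3b, chr2:130284452-130284571, minus strand: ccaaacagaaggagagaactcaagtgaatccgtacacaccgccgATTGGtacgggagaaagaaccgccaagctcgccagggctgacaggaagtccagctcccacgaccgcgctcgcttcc
Pdhb, chr14:8172993-8173112, minus strand: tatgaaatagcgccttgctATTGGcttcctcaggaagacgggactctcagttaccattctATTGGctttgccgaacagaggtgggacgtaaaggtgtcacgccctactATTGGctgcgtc

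The capitals mark ATTGG, the reverse complement of CCAAT, once each in Sdhb and Idh3b, and at 2 and 3 places in Fh1 and Pdhb. In Sdhd they mark matches to the NRF1 and GABPA letters, and in Sucla2 to the NRF1 letters. Over the 32 genes, CCAAT was found in 19 (59.4%), the NRF1 letters in 3 (9.38%), the GABPA letters in 4 (12.5%) and AAGGTCA in 1 (3.13%, Got1). Among 10970 tested genes with a listed start these shares were 40.0%, 8.73%, 14.7% and 3.52%. Some genes have several starts and are counted if any window matched. A match describes the letters only.

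Sex had few called effects on the 35 genes. In Ctrl mice 0 were called between females and males (edgeR; 0.638% of all genes were), and 5 had an unadjusted p under 0.05, 4 of them lower and 1 higher in females, against 5.87% and 6.2% of all genes. DESeq2 called 1 of the 35 (253 of all genes) and voom 0. In cKO mice 1 was called, Pdhx, lower in females (2.7% of all genes were called and 1.27% were called lower). Pdhx encodes the protein that binds dihydrolipoamide dehydrogenase to the core of the pyruvate dehydrogenase complex. It was at 162.5 to 203.7 CPM in Ctrl males (median 171.8) and 125.5 to 166.4 CPM in Ctrl females (median 147.1). In cKO mice it was at 142.8 to 184.0 CPM in males (median 168.9) and 120.2 to 158.7 CPM in females (median 139.9), so the sexes overlapped in both genotypes. The fold change of females against males was -0.27 in Ctrl (SE 0.07, edgeR adjusted p = 0.0618) and -0.25 in cKO (SE 0.06, edgeR adjusted p = 0.0307), and the 2 estimates differed by 0.02 (SE 0.09, edgeR adjusted p = 0.999). Without cKO male 1, 2, 5 or 7 or cKO female 2 or 4, 0 genes were called in this comparison, and the count was 2 without cKO male 4 or Ctrl female 6, 3 without cKO female 1 and 4 without cKO female 5. In Ctrl mice it was 1 without Ctrl male 1, cKO male 3, Ctrl female 1 or cKO females 2 or 6. Over all genes, single omissions gave 163 to 548 calls in cKO mice and 54 to 125 in Ctrl mice.

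Several TCA cycle genes were higher in cKO females than in cKO males before adjustment, though none passed. At an unadjusted p under 0.05 they were Idh2, Idh3g, Mdh1, Mdh2, Sdhb and Sdhc (9.11% of all genes were higher at that p). Pdhx, Pdpr and Sucla2 were lower at that p, as were 8.15% of all genes. Idh2 was at 1928 to 2186 CPM in cKO males (median 2088) and 2131 to 2448 CPM in cKO females (median 2286). Its fold change was 0.14 (SE 0.04, edgeR adjusted p = 0.0912), and 0.08 in Ctrl mice. Beside these values, 2 of the 10 cardiomyocyte markers, Tnni3 and Myl2, were called higher in cKO females, and the fibroblast marker Col1a2 was called lower. Idh3g, Pdha1 and Pdk3 lie on the X chromosome. Idh3g was higher in females of both genotypes at an unadjusted p under 0.05 (edgeR) and was called in neither. Its median was 458.5 CPM in Ctrl males and 492.5 CPM in Ctrl females, and 427.5 and 480.6 CPM in cKO males and females. Pdk3 did not reach that p, with medians of 1.64 and 1.88 CPM in Ctrl males and females and 1.78 and 1.71 CPM in cKO. Pdha1 differed by 0.02 in Ctrl and 0.01 in cKO mice and was not called.

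Mice of 1 group differed in how many of the 35 genes lay below the group mean. Ctrl female 6 was below its group mean in 33 of the 35 genes and Ctrl male 6 in 32, while Ctrl male 2 was below it in 3 and cKO male 4 in 4. In 8 of the 26 mice the genes were more evenly divided, with 16 to 21 of 35 below the mean. In the order just named, the cardiomyocyte marker sum of these 4 mice was 8.52%, 8.62%, 8.97% and 8.57% of counts, and the mitochondrially encoded share was 17.2%, 17.4%, 18.2% and 18.2%. These 4 mice come from different groups, so their shares are not on 1 baseline. Over all 26 mice, as deviations from group means, the average log2 CPM of the 35 genes had a correlation of 0.774 with the cardiomyocyte marker sum (log2 CPM). The correlation was 0.438 with the mitochondrially encoded share and 0.0158 with total counts (log2). The part of any of these in the counts of genes below the mean was not tested. The average log2 CPM over the 35 genes was 8.31 to 8.48 in Ctrl males, 8.22 to 8.33 in cKO males, 8.25 to 8.44 in Ctrl females and 8.22 to 8.37 in cKO females. On this TMM-scaled average the male genotypes overlapped, while their shares of all counts did not. Without Ctrl female 6, 15 of the 35 genes were called in the mean effect in place of 6, and 4 in males in place of 2. Calls over all genes also shifted with single omissions, from 96 to 349 in the mean effect (205 with all mice) and 4 to 122 in males (68 with all mice).

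Of 25 other genes of pyruvate and TCA cycle metabolism (further isoforms, lactate dehydrogenases, lipoate synthesis, malic enzymes and mitochondrial carriers), all 25 were tested. None was called in any of the 6 comparisons. At an unadjusted p under 0.05, 7 were lower and 0 higher in cKO males, against 7.09% and 6.11% of all genes. In cKO females 4 were lower and 0 higher, against 2.42% and 2.73%. In the mean effect 7 were lower and 0 higher, where 7.7% of all genes were lower. Their median fold changes were -0.06 in males, -0.07 in females and -0.07 in the mean effect, against 0.00 over all genes in each. The smallest p in the mean effect belonged to Slc25a11 and Slc25a12, the 2-oxoglutarate and aspartate-glutamate carriers of the malate-aspartate shuttle, with fold changes of -0.13 and -0.14 (edgeR adjusted p = 0.0544 and 0.0603). Pdk4, a pyruvate dehydrogenase kinase that responds to fasting, was at 171.9 to 446.6 CPM in Ctrl males (median 298.5) and 238.0 to 607.8 CPM in cKO males (median 414.2). In females it ranged from 288.8 to 660.7 CPM (median 479.6) in Ctrl and from 252.7 to 736.3 CPM (median 441.5) in cKO, so both sexes overlapped. Its fold changes were 0.44 (SE 0.27) in males and 0.01 (SE 0.27) in females, and neither was called.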

How the data were processed

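For 26 samples the authors deposited gene counts, which are whole numbers, and 0 columns were unused. The submitters' processing notes name GRCm39, FastQC 0.74, cutadapt 4.6, STAR 2.7.11a and HTSeq. The annotation release and the strand setting of counting are not given in the sources used here, so reads of pseudogenes and overlapping genes may have been split or lost. Libraries were poly-A selected and stranded, from RNA of integrity number 7.7 or more, per the labels' protocols. Samples were grouped by genotype and sex in the titles. Each sample is taken as a separate mouse, and the chi-square per degree of freedom of counts over the 72 within-group pairs was 7.19 to 33.4, so no pair was a duplicate.

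Counts were fitted in R 4.3.3 with edgeR 4.0.16: filterByExpr with a minimum count of 10 (15357 genes), TMM, 4 group means, robust quasi-likelihood F tests and Benjamini-Hochberg adjustment over all genes. SE was derived from the fold change and F. Average log2 CPM used a prior count of 2. Total counts of 14403102 to 30867399 put 3 counts at 0.0972 to 0.208 CPM. For the length and GC offset, 98.3% of genes tested were matched by gene ID to GENCODE M21, whose build is older than that of the counts. Alternatives used DESeq2 1.42.0, limma 3.58.1 and sva 3.50.0. The edgeR fit, alone, with the offset and with the block, DESeq2 and voom were tested on simulated counts with known fold changes.

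Members and lists were chosen with earlier results of these data known. Named are the members called in any comparison and, per role, the one of smallest p in the mean effect. Members named outside this rule were chosen after their values were seen.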

Additional observations from a re-analysis of the deposited data

How the results depend on the processing

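The median fold change of the 35 genes stayed below 0 in males (-0.15 to -0.11), in females (-0.10 to -0.08) and in the mean effect (-0.12 to -0.10) under the 12 alternatives (11 for the mean effect). The median of females against males in Ctrl, 0.00, changed sign (-0.04 to 0.02). Counts of called genes depended on the setting, and so did the counts over all genes, given in parentheses. In males 2 were called in the main fit (68 of all genes). The count was 11 with DESeq2 (386), 4 with voom (188) and 6 with a mean of at least 5 CPM (164). It was 0 at an edgeR adjusted p under 0.01 (4). It was 1 with no filter (31), with only the compared groups (72) and with the replicate block (75). It was also 1 with the length and GC offset (15), with that offset and the block (17), and without Ctrl males 3 and 6 (7). In the mean effect 6 were called in the main fit (205 of all genes). The count was 17 with DESeq2 (525), 10 with voom (312) and 10 without Ctrl males 3 and 6, where calls over all genes also rose. It was 3 with the offset (163), 1 with the offset and the replicate block (125), and 2 at 0.01 (23). Of females against males in Ctrl, 0 were called in the main fit (98 of all genes). The count was 1 with DESeq2 (253) and 1 with a surrogate variable (167). In cKO 1 was called in the main fit (414 of all genes). The count was 4 with DESeq2 (708), 2 with voom (670) and 4 with a mean of at least 5 CPM (482). It was 2 with a surrogate variable (612), 0 with the offset and the replicate block (209), and 0 at 0.01 (69). The cause of these shifts was not tested. In females and in the interaction it was 0 under every alternative run.

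With each mouse left out in turn the count ranged from 0 to 4 in males, 0 to 0 in females and the interaction, 5 to 15 in the mean effect, 0 to 1 for sex in Ctrl and 0 to 4 for sex in cKO. Over these omissions the medians ranged from -0.14 to -0.12 in males and from -0.12 to -0.08 in females. Sdhb kept its male call under all 12 alternatives, with fold changes of -0.28 to -0.23. Sdhd lost its male call in 6 of 12, with no filter, with only the compared groups, with the block, with the offset, with both, and without Ctrl males 3 and 6 (edgeR adjusted p of 0.0545 to 0.19), and on omission of 7 single mice. With the replicate block alone, Fh1 (edgeR adjusted p = 0.0664) and Idh3b (0.0649) also lost their call in the mean effect. Idh3b lost it too with no filter (0.0712) and without Ctrl male 5 (0.0554), and Pdhb without Ctrl female 1 (0.0523). Same-numbered mice did not deviate together in every pair (correlations of -0.163 to 0.088 in males and -0.0969 to 0.404 in females). In females the mean correlation was 0.118 for same-numbered pairs and -0.0186 for other pairs, and in males -0.0259 and 0.0043. In all, 1 of 6 males and 2 of 6 females correlated best with their own number. The numbers are not taken as pairs in the main fit, and whether they mark shared processing was not tested. Pdk3 was the 1 member under 100 counts in every library. Standard errors in males of 0.11 for Pdpr and 0.10 for Pdp2 were also close in size to the median change.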
